A study of Macaca mulatta with 449 samples.

Results

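The genes described are those that mark serotonin neurons (TPH2, SLC6A4 and FEV) and noradrenaline or adrenaline neurons (DBH, SLC6A2, PNMT and PHOX2A) in the rhesus macaque brain. They were chosen by symbol, and 4 of the 7 had a row with that symbol among the 30807 genes of the count table: TPH2 (ENSMMUG00000007730), SLC6A4 (ENSMMUG00000003515), DBH (ENSMMUG00000017207) and SLC6A2 (ENSMMUG00000020238). FEV, PNMT and PHOX2A were not matched to a row, and their levels were not analysed here. For FEV, the factor that switches on the serotonin neuron programme, the study's supplement names 1 assembled transcript by protein homology, at chr12:101105500-101109578 of Mmul 8.0.1 on the minus strand, with 3 exons and 1404 exonic bases.

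Serotonin is made from tryptophan, and TPH2, neuronal tryptophan hydroxylase, carries out the first and rate-limiting step. SLC6A4 is the transporter that takes released serotonin back into the neuron and is the target of the serotonin reuptake inhibitors. The cell bodies lie in the raphe nuclei, a column of cell groups near the midline from the midbrain through the pons to the medulla, and their axons reach nearly the whole brain. Noradrenaline is made from dopamine by DBH, dopamine beta-hydroxylase, inside synaptic vesicles. SLC6A2 is the noradrenaline transporter. Noradrenaline neurons lie in the locus coeruleus of the dorsal pons and in groups of the medulla. Dopamine neurons of the ventral tegmental area and substantia nigra share the enzymes TH and DDC and the vesicular transporter SLC18A2 with these cells, but use neither TPH2 nor DBH.

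RNA depleted of ribosomal RNA was sequenced from 52 dissected sub-regions of 8 healthy, untreated macaques from a single source, which gave 416 libraries. The 408 libraries of 51 sub-regions, all but the midbrain, were analysed here. The animals were 4 males and 4 females. The young animals were Rhesus 4 (female, 3.2 years), Rhesus 7 (male, 4 years), Rhesus 8 (male, 3.8 years) and Rhesus 10 (female, 5 years), and the mid-aged animals were Rhesus 2 and Rhesus 3 (males, 10 years), Rhesus 6 (female, 10 years) and Rhesus 11 (female, 9.8 years). The comparison at the centre was between the substantia nigra (SN), ventral tegmental area (VTA), pons (PON) and medulla oblongata (MO), each taken from all 8 animals. Library totals were 8447320 to 15231743 counts in these 32 libraries and 7784678 to 31083490 in all 408. Levels are CPM, counts scaled to a common library size with TMM-adjusted totals, and are compared within a gene only, since gene lengths of this annotation were not used here. A library with at most 3 counts of a gene was treated as at the floor. Each sample is a piece of tissue, so fewer cells of a type and less RNA per cell cannot be told apart.

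The labels were checked against marker genes, and several libraries stood apart. TH, the first enzyme of dopamine synthesis, ranged from 766 to 1861 CPM in SN and from 14.7 to 326 CPM in VTA, and SLC6A3, the dopamine transporter, from 272 to 889 CPM in SN and from 4.36 to 57.6 CPM in VTA, so that neither range overlapped. HOXA4, a gene of hindbrain position, was between 7.40 and 19.2 CPM in all PON and MO libraries and at most 0.380 CPM in VTA. The VTA library of Rhesus 2 had the lowest sum over 7 dopamine neuron genes, at 216 CPM against 482 to 1050 CPM in the other VTA libraries. The VTA library of Rhesus 11 had the lowest FOXA2, a factor of midbrain floor plate and dopamine neurons, at 0.178 CPM against 1.52 to 16.9 CPM in the others. The MO library of Rhesus 6 held 476 CPM summed over 6 neuron genes against 5908 to 10445 CPM in the other MO libraries, and its sum over 5 oligodendrocyte genes was the highest of MO at 87379 CPM. The MO library of Rhesus 4 held 89.1 CPM of HOXB8, a gene of more caudal position, against at most 5.46 CPM in the others. The SN libraries of Rhesus 4 and Rhesus 6 held 107 and 49.5 CPM summed over 5 genes of cortical excitatory neurons, against 4.89 to 11.6 CPM in the other SN libraries. The MO library of Rhesus 11 held 11.2 CPM summed over 3 pineal genes, of which 10.1 CPM was TPH1, the tryptophan hydroxylase of pineal gland and gut. In PON, 2 of 4 motor neuron genes (CHAT and ISL1) and the factor FOXA2 were at 0 in all 8 libraries, SLC18A3 was at most 0.0782 CPM and PRPH at most 3.99 CPM.

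TPH2 was found in few sub-regions and was highest in VTA and MO. Over 3 counts were reached in 97 of 408 libraries, and the mean was at least 1 CPM in 4 of 51 sub-regions. In VTA the lowest library was at 0, the median was 11.6 CPM and the highest library, that of Rhesus 11, was at 94.4 CPM (mean 25.2 ± 34.8 CPM, SD, n = 8). Rhesus 7 followed at 60.3 CPM, Rhesus 6 at 23.4 CPM, Rhesus 10 at 21.1 CPM and Rhesus 8 at 2.06 CPM, and the libraries of Rhesus 2, 3 and 4 were at the floor. In MO the levels ran from 0.266 CPM in Rhesus 4 over a median of 4.11 CPM to 45.2 CPM in Rhesus 8 (mean 9.52 ± 14.9 CPM, n = 8), and only the library of Rhesus 4 was at the floor. In PON all 8 libraries were at the floor, with 0 to 3 counts (mean 0.11 ± 0.137 CPM). In SN the highest level was 0.518 CPM (6 counts, Rhesus 6) and the mean 0.167 ± 0.156 CPM. The PON and VTA ranges overlapped through the 3 VTA libraries at the floor, and 7 of 8 MO libraries were above every PON library.

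Outside the brainstem, TPH2 was highest in the cerebellum vermis (CBV), the only sub-region in which all 8 libraries passed the floor. The CBV levels ran from 0.972 to 3.65 CPM with a median of 1.96 CPM (mean 2.12 ± 0.850 CPM, n = 8), which rests on 10 to 39 counts a library. Each animal had more TPH2 in CBV than in its cerebellar cortex (CBC, mean 0.666 ± 0.489 CPM), by 1.23 ± 0.85 on the log2(CPM + 0.5) scale (two-sided exact sign-flip permutation p = 0.0078125, n = 8, the smallest that 8 animals can give). The hippocampal fields CA3 (1.19 ± 1.21 CPM), CA1 (0.945 ± 0.697 CPM) and the dentate gyrus (0.744 ± 0.483 CPM) followed, with the pituitary (0.832 ± 0.624 CPM) and the thalamus (0.684 ± 0.520 CPM). In the order of the levels, VTA and MO did not differ beyond the spread of the animals (exact p = 0.859, n = 8), nor did MO and CBV (exact p = 0.219) or CBV and CA3 (exact p = 0.0859).

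SLC6A4 had its highest level in VTA. The VTA libraries ran from 0 in Rhesus 2 over a median of 31.6 CPM to 234 CPM in Rhesus 11 (mean 67.2 ± 84.6 CPM, n = 8). Rhesus 7 was at 135 CPM, Rhesus 6 at 102 CPM, Rhesus 10 at 50.8 CPM and Rhesus 8 at 12.5 CPM, whereas Rhesus 4 was at 2.24 CPM and Rhesus 3 at 0.676 CPM. The 3 animals with the least SLC6A4 in VTA were also the 3 without TPH2 above the floor there. In MO the levels ran from 0.0885 CPM in Rhesus 4 over a median of 5.23 CPM to 49.4 CPM in Rhesus 8 (mean 10.9 ± 16.3 CPM, n = 8). In PON they stayed between 0.112 and 0.391 CPM (1 to 5 counts) and in SN between 0.0621 CPM and 1.18 CPM (1 to 11 counts), highest in Rhesus 4. All PON libraries were below the 7 MO libraries other than that of Rhesus 4 and below the 7 VTA libraries other than that of Rhesus 2.

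After VTA and MO, SLC6A4 was highest in the olfactory bulb (OB), where all 8 libraries passed the floor. The OB levels ran from 0.534 to 1.59 CPM with a median of 1.06 CPM (mean 1.06 ± 0.379 CPM, n = 8), from 7 to 22 counts a library. Of the summed means of the 51 sub-regions, VTA and MO held 89.4% for SLC6A4 and 72.6% for TPH2. VTA and MO did not differ beyond the spread of the animals (exact sign-flip p = 0.3125, n = 8), whereas MO was above OB in 7 of 8 animals (exact p = 0.046875) and OB above the entorhinal and perirhinal cortex (PA) in 7 of 8 (exact p = 0.015625). These neighbour tests were not adjusted for their number.

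**Figure D1:**
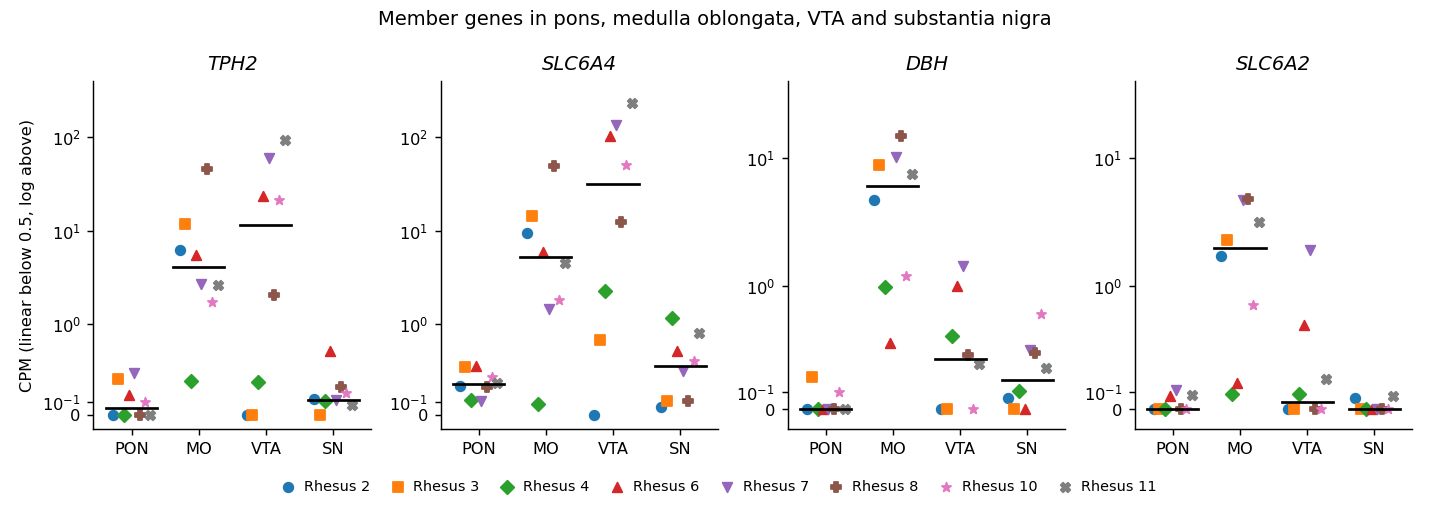
Levels of TPH2, SLC6A4, DBH and SLC6A2 (CPM, symmetric log axis) in PON, MO, VTA and SN, 1 point per animal and a black line at the median of 8 animals. PON points lie at or near 0 for all 4 genes, VTA points of TPH2 and SLC6A4 spread from 0 to 94.4 and 234 CPM, and DBH and SLC6A2 are highest in MO.

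DBH was spread more widely than the serotonin genes, with over 3 counts in 265 of 408 libraries and a mean of at least 1 CPM in 14 of 51 sub-regions. In MO the levels ran from 0.389 CPM in Rhesus 6 over a median of 6.06 CPM to 14.9 CPM in Rhesus 8 (mean 6.06 ± 5.18 CPM, n = 8). Rhesus 7 (10.2 CPM), Rhesus 3 (8.74 CPM), Rhesus 11 (7.46 CPM) and Rhesus 2 (4.66 CPM) lay between, and Rhesus 10 (1.18 CPM) and Rhesus 4 (0.974 CPM) near the low end. In VTA the mean was 0.429 ± 0.521 CPM, in SN 0.211 CPM, and in PON all 8 libraries were at the floor with at most 2 counts. MO and VTA overlapped through the MO libraries of Rhesus 4, 6 and 10, and all MO libraries were above all PON libraries. Sub-regions of the cortex came next, led by the ventromedial prefrontal cortex (vmPFC, 2.52 ± 0.388 CPM), the insula (INS, 2.31 ± 0.779 CPM), the temporal polar gyrus (2.17 ± 0.599 CPM) and the medial orbital gyrus (1.91 ± 0.817 CPM), each with all 8 libraries over the floor. MO and vmPFC did not differ beyond the spread of the animals (exact sign-flip p = 0.328, n = 8). In the RefSeq annotation of another build, T2T-MMU8v2.0, a long non-coding RNA (LOC114672699) overlaps DBH, and the strand option of the counting is not given in the sources used here, so the reads of both may not be told apart. None of the other 3 genes had an overlapping gene in that table.

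SLC6A2 was measured above the floor in only 42 of 408 libraries, and it was highest in OB. The OB libraries ran from 3.33 CPM in Rhesus 3 over a median of 8.10 CPM to 10.6 CPM in Rhesus 10 (mean 7.91 ± 2.36 CPM, n = 8, 31 to 166 counts). MO was second, from 0.0885 CPM in Rhesus 4 over a median of 1.98 CPM to 4.74 CPM in Rhesus 8 (mean 2.19 ± 1.87 CPM), and OB was above MO in 8 of 8 animals (exact sign-flip p = 0.0078125, n = 8, the smallest possible). The ranges of OB and MO overlapped, since Rhesus 8 had more SLC6A2 in MO than Rhesus 3 had in OB. In VTA, 1 library stood out, that of Rhesus 7 at 1.90 CPM (20 counts), and 6 of 8 were at the floor. PON and SN held at most 1 count per library. OB and MO together held 68.6% of the summed means of SLC6A2, and 33 of 51 sub-regions had all libraries at the floor.

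**Figure D2:**
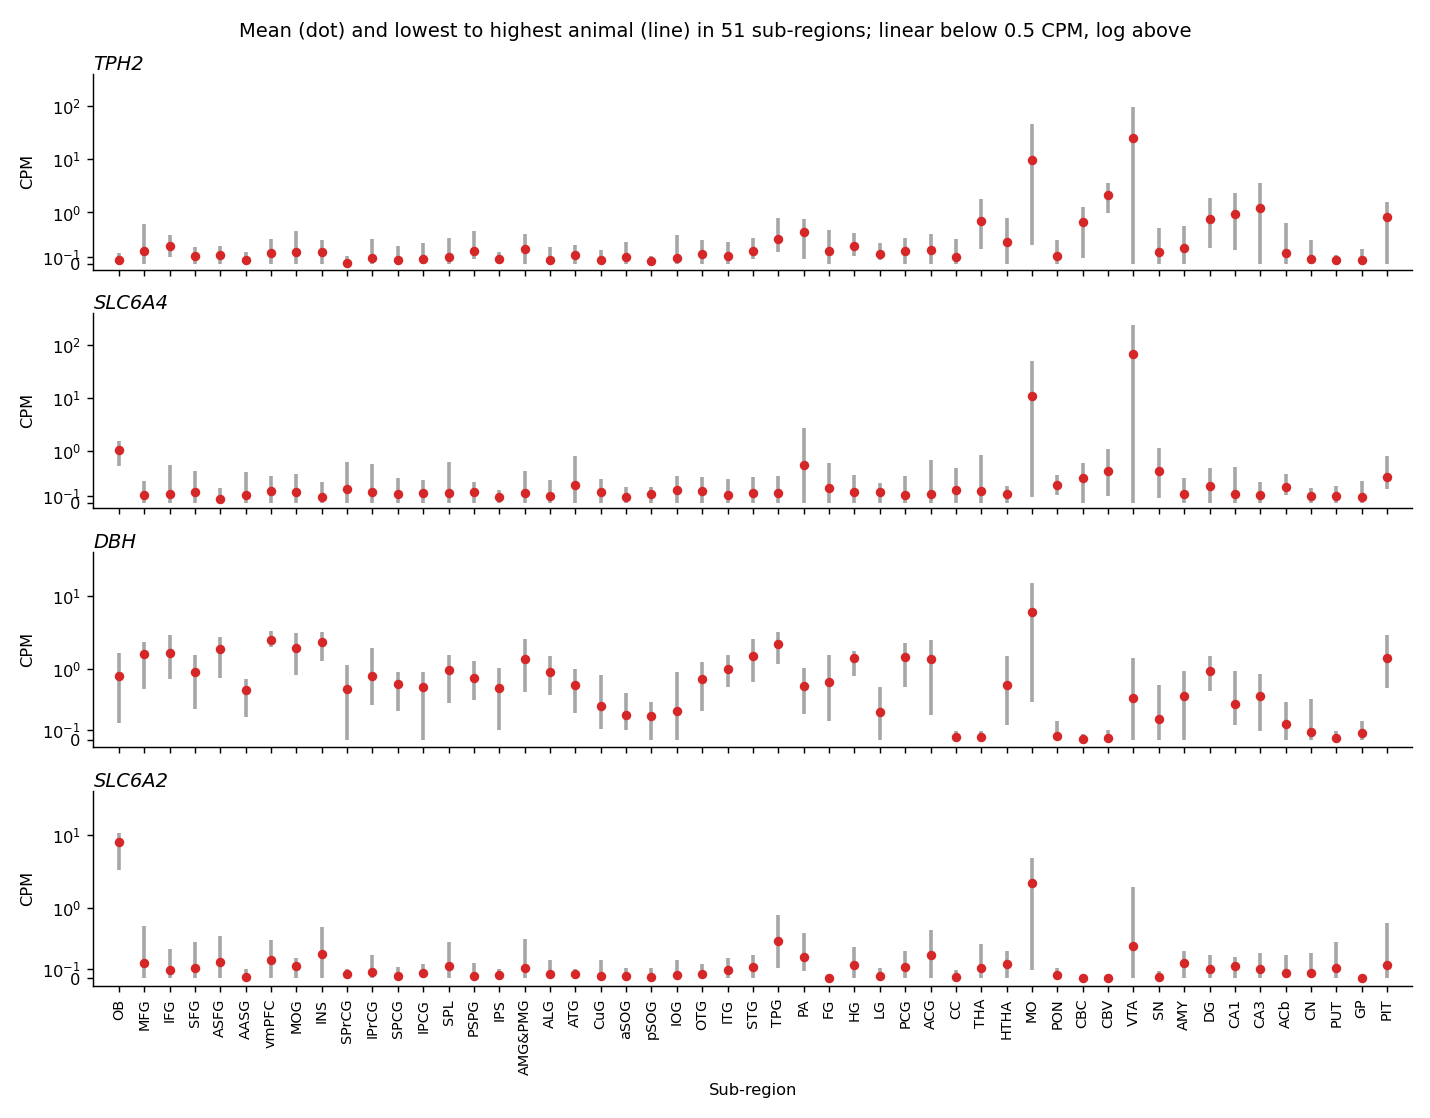
Mean level (dot, CPM, symmetric log axis) and lowest to highest animal (line) of each gene in the 51 sub-regions, n = 8 animals each. TPH2 and SLC6A4 peak in VTA and MO, SLC6A2 in OB and MO, and DBH in MO with a run of cortical sub-regions below it, led by vmPFC at 2.52 CPM.

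The direct comparison of PON, MO, VTA and SN asked how these genes are distributed along the brainstem. It was fitted over the 32 libraries with the animal as a block in edgeR's quasi-likelihood test, and a gene was called at a Benjamini-Hochberg FDR below 0.05 over 15157 genes with an absolute log2 fold change (log2FC) above 1. Of the 4 genes, 3 passed the filter on low counts, and SLC6A2 did not. MO held at least 31.2-fold more TPH2 than PON (FDR 0.000532), at least 35.6-fold more SLC6A4 (log2FC of PON over MO −5.44, SE 1.33, FDR 0.00198) and at least 19.9-fold more DBH (FDR 1.68e-06), where "at least" folds are ratios of means against the floor of 3 counts per library, used wherever the lower mean lay under it. Without Rhesus 8, whose MO library was far above the others, the MO means were 4.42 ± 3.9 CPM for TPH2 and 5.36 ± 5.05 CPM for SLC6A4 (n = 7), and the folds over PON at least 14.6 (FDR 0.00277) and at least 17.8 (FDR 0.0114). All 3 were called, beside 10% of all genes tested. VTA held at least 82.5-fold more TPH2 than PON (FDR 6.29e-05) and at least 220.1-fold more SLC6A4 (log2FC −7.66, FDR 2.88e-05). Without Rhesus 11 these were at least 49-fold and at least 139-fold. DBH was called higher in VTA than in PON as well (FDR 0.0286), but its level in VTA was close to the floor (at least 1.40-fold), and the call was lost without Rhesus 4, 6, 7 or 11 (FDR 0.0547 to 0.124). In PON over VTA 10.2% of all genes were called.

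Between MO and VTA, only DBH was called. It was 14.1-fold higher in MO by the ratio of means (log2FC 3.5, SE 0.62, FDR 0.000645), beside 2.7% of all genes called, 1.96% higher. TPH2 was 2.65-fold and SLC6A4 6.18-fold higher in VTA by the means (6.45-fold and 14-fold without Rhesus 8, 1.46-fold and 3.68-fold without Rhesus 11), but neither passed the test (log2FC of MO over VTA −0.99, SE 1.06, FDR 0.619, and −2.22, SE 1.10, FDR 0.222). Without Rhesus 11, TPH2 was 0.11 on the log2 scale the other way (FDR 0.968). With all 51 sub-regions in 1 fit, which takes the spread from all of them, both were called lower in MO (−1.32, FDR 0.0130, and −2.75, FDR 1.05e-09), and the number of genes called overall rose from 409 to 686.

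Against SN, MO was higher in TPH2 (at least 33.7-fold by the means, log2FC 5.74), SLC6A4 (24.5-fold, log2FC 4.59) and DBH (at least 21.5-fold, log2FC 4.48), all called beside 7.66% of all genes. Without Rhesus 8 the TPH2 fold was at least 16 and the SLC6A4 fold 10.9. VTA was higher than SN in TPH2 (at least 89.3-fold, log2FC 6.74, at least 53.1-fold without Rhesus 11) and SLC6A4 (152-fold, log2FC 6.81), beside 5.34% of all genes called, 2.77% higher. DBH was not called there (log2FC 0.98, FDR 0.443). Between PON and SN none of the 3 was called, beside 14.4% of all genes. Counts were few, since at most 2 of 8 PON libraries and 4 of 8 SN libraries passed the floor for any of the 3. With all 51 sub-regions in 1 fit, DBH was called lower in PON (log2FC −2.12, FDR 0.0152), although both of its means lay under the floor. Whichever single animal was omitted, the calls of TPH2, SLC6A4 and DBH held in PON over MO and MO over SN, and those of TPH2 and SLC6A4 in PON over VTA and VTA over SN. For SLC6A2, a fit without the filter on low counts called MO over PON (at least 7.16-fold by the means, FDR 2.06e-06), MO over VTA (6.57-fold, FDR 0.00151) and MO over SN (at least 7.74-fold, FDR 9.02e-07). It also called VTA over PON (at least 1.09-fold, FDR 0.0424) and VTA over SN (at least 1.18-fold, FDR 0.0352), where the VTA library of Rhesus 7 held 20 counts and the others 0 to 5.

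The serotonin genes varied widely from animal to animal in VTA, and TPH2 followed the order of SLC6A4 over the 5 animals in which it passed the floor. From lowest to highest SLC6A4, the animals were Rhesus 2, 3, 4, 8, 10, 6, 7 and 11. TH did not follow this order (Pearson r = 0.153 over 8 animals on the log2 scale, exact permutation p = 0.709), nor did SLC6A3 (r = 0.138, exact p = 0.738). Of the 7 dopamine neuron genes, none passed the test after adjustment and 2 had an r below 0. The r was highest for SLC18A2 (0.799, exact p = 0.0102, adjusted p = 0.0751) and ALDH1A1 (0.735, adjusted p = 0.167) and lowest for LMX1A (−0.626, adjusted p = 0.363). The sample of Rhesus 11 had the most SLC6A4 and the least SLC6A3 (4.36 CPM), and that of Rhesus 2 was low in both (SLC6A3 5.07 CPM). GCHFR, the regulator of the enzyme that makes the cofactor of TPH2 and TH, followed SLC6A4 closely, from 2.53 CPM in Rhesus 2 to 30.3 CPM in Rhesus 11 (r = 0.978, exact p = 0.000223, adjusted p = 0.00873 over 96 relations, Spearman rho = 1 with exact p = 4.96e-05). Leaving out the 2 animals farthest from the median SLC6A4 gave r = 0.986. GCHFR was 1 of 12 noradrenaline pathway genes related to SLC6A4 in VTA. Of these 12, 3 passed with a positive r, none with a negative r, and 4 had an r below 0. Of all 14635 genes ranked, 2.33% had an r at least as high as the lowest of the 3. GCH1 had r = 0.879 (exact p = 0.00727, adjusted p = 0.0581) and did not pass. HTR1A, the receptor by which serotonin neurons inhibit themselves, rose with SLC6A4 from 0.460 to 6.14 CPM (r = 0.911, exact p = 0.00112, adjusted p = 0.0268, rho = 0.976 with exact p = 0.000397, r = 0.807 without the 2 farthest).

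Of 18 serotonin pathway genes related to SLC6A4 in VTA, 3 passed the test with a positive r and none with a negative r, and 7 had an r below 0. Of all 14635 genes ranked, 1.89% had an r at least as high as the lowest of these 3. In MO, none of 15 such genes passed with SLC6A4 and 4 had an r below 0 (HTR1A r = −0.151, exact permutation p = 0.715, adjusted p = 0.829). The r there ran from −0.706 for LMX1B (adjusted p = 0.236) to 0.761 for SLC18A2 (adjusted p = 0.159) and 0.824 for DDC (exact p = 0.0133, adjusted p = 0.0799). SLC17A8 had r = 0.617 and rho = 0.881 (exact p = 0.00724, adjusted p = 0.0695). Besides HTR1A, those that passed in VTA were MAOB and DDC. MAOB, which degrades monoamines, had r = 0.900 with SLC6A4 (exact p = 0.00156, adjusted p = 0.0282, rho = 0.857 with exact p = 0.0107, 0.729 without the 2 farthest), DDC, the second enzyme of serotonin synthesis, r = 0.835 (exact p = 0.00275, adjusted p = 0.0330, rho = 0.738 with exact p = 0.0458, 0.911 without them), and MAOA, of the noradrenaline list, r = 0.816 (exact p = 0.00372, adjusted p = 0.0335, rho = 0.786 with exact p = 0.0279, 0.536 without them). QDPR, which regenerates the cofactor of TPH2, had a negative r of −0.798 (exact p = 0.0113, adjusted p = 0.0776, rho = −0.810 with exact p = 0.0218), SPR had −0.521, PTS 0.345 and TPH1 −0.142 (adjusted p = 0.429, 0.751 and 0.829). After adjustment, the rho of HTR1A passed (adjusted p = 0.0190), and those of MAOB (0.0857), DDC (0.232), MAOA (0.168) and QDPR (0.161) did not. FOXA2 went the other way by rank, with rho = −0.929 (exact p = 0.00223, adjusted p = 0.0306) and r = −0.787 (exact p = 0.0123, adjusted p = 0.0787). TPH2, with 5 libraries over the floor, was not tested against SLC6A4 in VTA. As a description over all 14635 genes ranked by their correlation with SLC6A4 in VTA, GCHFR had rank 3, TPH2 rank 4 and AQP4, an astrocyte water channel, rank 8 (r = 0.972). All 5 astrocyte marker genes had a positive r with SLC6A4, and none was at 0 in any VTA library. In the order of SLC6A4 from Rhesus 2 to Rhesus 11, their sum was 970 CPM, 2301 CPM, 2530 CPM, 2762 CPM, 4192 CPM, 3847 CPM, 3621 CPM and 4781 CPM. The sum over 6 neuron genes was 9902 CPM in Rhesus 2 and 5637 CPM in Rhesus 11, with 5905 to 7393 CPM between. The sum over 2 hindbrain HOX genes was 0.297, 0.380 and 0.178 CPM in Rhesus 6, 7 and 11, the 3 animals with the most SLC6A4, and 0 in the others. These sums rest on few counts, since the floor of 3 counts was at 0.290 CPM on average in VTA. The part of these differences in cell types and position in the relations above, that of MAOB included, was not tested. These relations were chosen after the data were seen, and the genes compared share library, depth and dissection. Without Rhesus 11, the mean SLC6A4 of VTA was 43.4 ± 55.2 CPM and that of TPH2 15.3 ± 22.3 CPM, and without Rhesus 2 they were 76.8 ± 86.5 CPM and 28.8 ± 35.9 CPM (n = 7).

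**Figure D3:**
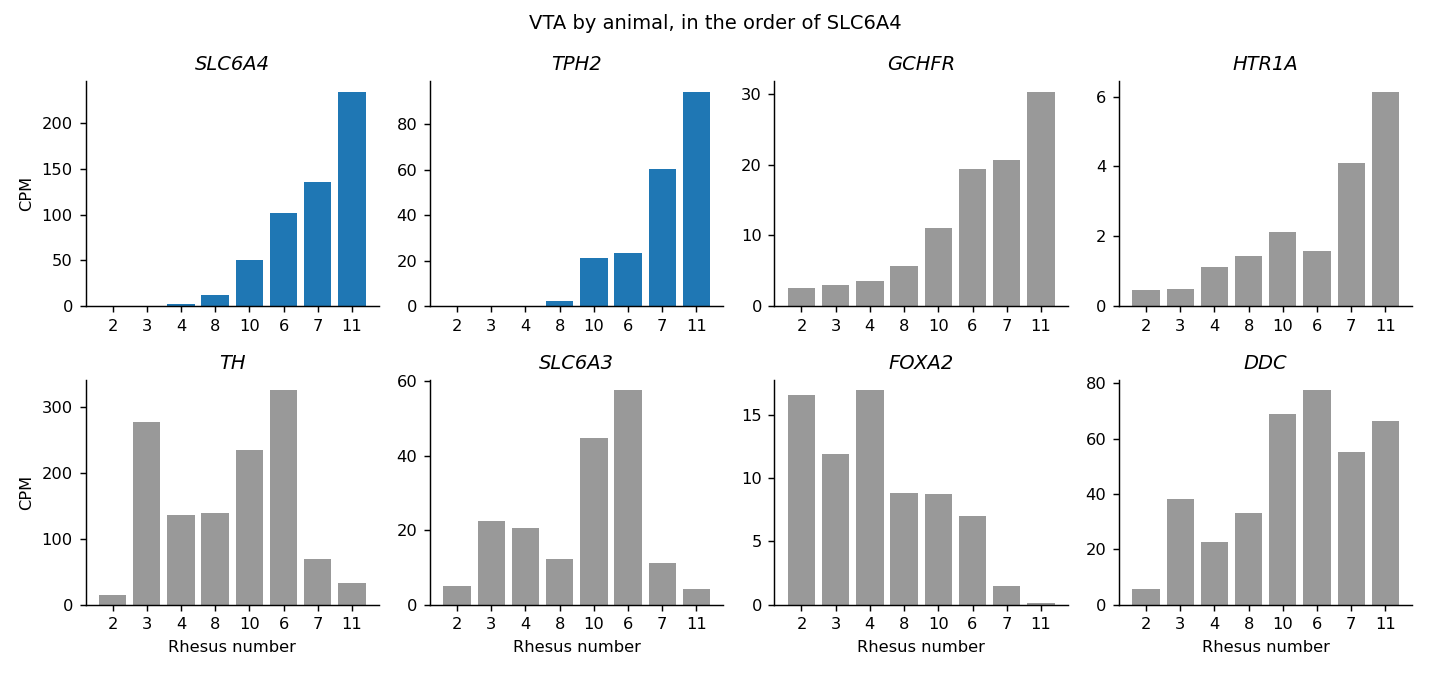
Levels (CPM) of SLC6A4, TPH2, GCHFR, HTR1A, TH, SLC6A3, FOXA2 and DDC in the VTA library of each animal, with the animals in rising order of SLC6A4 (Rhesus 2, 3, 4, 8, 10, 6, 7, 11). GCHFR climbs with SLC6A4 from 2.53 to 30.3 CPM, TH and SLC6A3 have no such order, and FOXA2 is lowest in Rhesus 11 at 0.178 CPM.

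In MO, the 2 serotonin genes varied together over the animals, and so did the 2 noradrenaline genes. TPH2 and SLC6A4 had r = 0.975 on the log2 scale (exact permutation p = 0.000198, adjusted p = 0.000818 over 6 pairs, n = 8, rho = 0.929 with exact p = 0.00223, r = 0.908 without the 2 farthest animals). DBH and SLC6A2 had r = 0.965 (exact p = 0.000273, adjusted p = 0.000818, rho = 0.952 with exact p = 0.00114, r = 0.946 without the 2 farthest). The 4 pairs of a serotonin with a noradrenaline gene had r between 0.537 and 0.587 and did not pass the test (adjusted p = 0.170). Without the 2 animals farthest in the serotonin gene, r was between −0.126 and 0.159. Without the 2 farthest in DBH instead, DBH had r = 0.647 with TPH2 and 0.559 with SLC6A4, so these values depended on which animals were left out. The sample of Rhesus 8 was highest in all 4 genes. The sample of Rhesus 7 was second in DBH (10.2 CPM) and SLC6A2 (4.67 CPM) but low in SLC6A4 (1.45 CPM), and that of Rhesus 6, low in neuron genes, had little DBH (0.389 CPM) yet 5.92 CPM of SLC6A4.

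Of 14 noradrenaline pathway genes related to DBH in MO, 4 passed the test with a positive r and none with a negative r. Over all 14874 genes ranked, 0.215% had an r at least as high as the lowest of these 4. TH had r = 0.892 with DBH (exact p = 0.00221, adjusted p = 0.0303, rho = 0.952 with exact p = 0.00114, r = 0.786 without the 2 farthest). SLC18A2, which loads monoamines into vesicles, had r = 0.885 (exact p = 0.00176, adjusted p = 0.0282, rho = 0.929 with exact p = 0.00223, 0.767 without them) and DDC r = 0.882 (exact p = 0.00384, adjusted p = 0.0335, rho = 0.786 with exact p = 0.0279, 0.876 without them). CYB561, which supplies electrons to DBH in the vesicle, had r = 0.818 (exact p = 0.00345, adjusted p = 0.0335, rho = 0.905 with exact p = 0.00456, 0.559 without them). By rho after adjustment, TH (adjusted p = 0.0274) and SLC18A2 (0.0306) passed as well, but DDC (0.168) and CYB561 (0.0548) did not. The other genes of the list did not pass either way, among them the factor TFAP2B (r = 0.581), GCHFR (0.404), NPY (0.353), GCH1 (0.178) and RET (−0.022), and 2 of the 14 had an r below 0. Ranked over the same genes, SLC6A2 was the first gene by correlation with DBH and TH the ninth, while TPH2 was second with SLC6A4. Without Rhesus 4 and Rhesus 6, the MO means were 11.7 ± 16.8 CPM for TPH2, 13.5 ± 18.3 CPM for SLC6A4, 7.85 ± 4.71 CPM for DBH and 2.87 ± 1.63 CPM for SLC6A2 (n = 6).

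**Figure D4:**
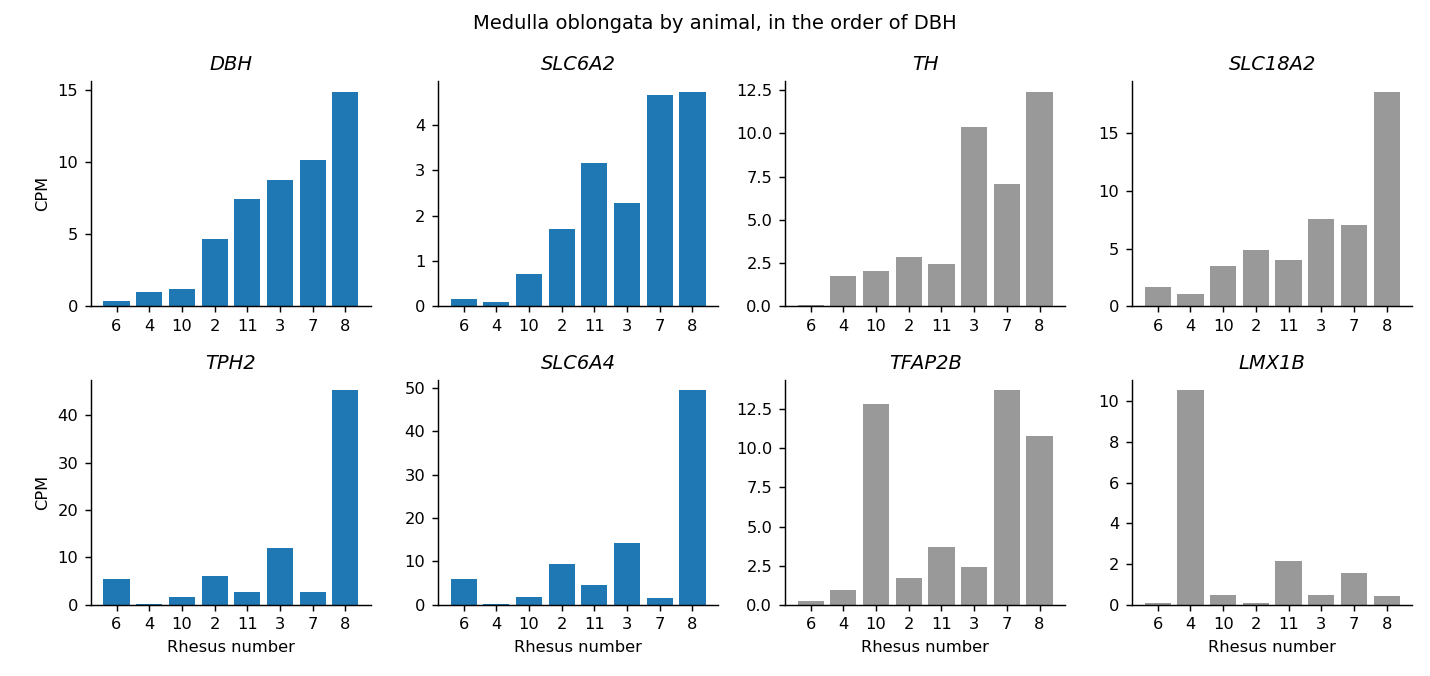
Levels (CPM) of DBH, SLC6A2, TH, SLC18A2, TPH2, SLC6A4, TFAP2B and LMX1B in the MO library of each animal, with the animals in rising order of DBH. SLC6A2 and TH follow the order of DBH closely, whereas TPH2 and SLC6A4 have another order, similar but not identical between them, with Rhesus 8 highest in all 4 member genes.

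The other genes of the 2 pathways were described from lists of 18 serotonin and 16 noradrenaline pathway genes with a row, which share DDC, SLC18A2 and GCH1. In PON over MO, none of 16 tested serotonin pathway genes was called higher and 6 were called lower (median log2FC −0.92), beside 6.25% of all genes called lower, 3.78% called higher and a median of −0.02. LMX1B, a factor that maintains serotonin neurons, was at 0 in all PON libraries and at 1.98 ± 3.53 CPM in MO (at least 6.48-fold higher, FDR 0.000944), with 10.5 CPM in Rhesus 4, whose MO sample had the least SLC6A4, and the fold of LMX1B was at least 2.54 without that animal. DDC was at least 25.6-fold higher in MO (FDR 4.00e-05), or at least 13.2-fold without Rhesus 8. SLC17A8, a vesicular glutamate transporter of some serotonin neurons (at least 14.1-fold higher in MO, at least 8.99-fold without Rhesus 2), SLC18A2 (at least 19.8-fold), the receptor HTR1B (at least 3.83-fold) and the transporter SLC22A3 (log2FC of PON over MO −1.12) were lower in PON as well. Not called were INSM1 (−0.94), GATA3 (−0.92), MAOB (−0.60), GATA2 (−0.53), GCH1 (−0.46), HTR1A (−0.22), QDPR (−0.07), PTS (0.09) and SPR (0.59), and FOXA2, at the floor in both. TPH1 and HTR1D did not pass the filter on low counts. Of 13 noradrenaline pathway genes tested, 6 were lower in PON and 2 higher (median −1.0). Beside DDC and SLC18A2 these were the peptide gene CARTPT (at least 50.8-fold higher in MO, at least 30.6-fold without Rhesus 8), TFAP2B, a factor of noradrenaline neurons (at least 19-fold), TH (at least 16-fold) and NPY (log2FC −3.20). ADRA2A, the inhibitory noradrenaline receptor (1.38), and RET, the receptor of glial cell line-derived factors (1.46), were the 2 higher in PON. ADRA2C (−1.0), MAOA (−0.26), GCHFR (0.31) and CYB561 (0.73) were not called, and SLC18A1, TFAP2A and HAND2 did not pass the filter. Markers of other cell types moved between these sub-regions too. Of 6 neuron genes, 4 were called higher in PON (summed 10403 to 22449 CPM in PON and 476 to 10445 CPM in MO), and the sum over 5 genes of cortical excitatory neurons was 518 to 718 CPM in PON and 15.3 to 160 CPM in MO. Of 5 astrocyte genes 3 were lower in PON (1076 to 3636 CPM, against 4113 to 13378 CPM in MO), as were all 3 motor neuron genes tested (summed over the 4 with a row, 0 to 4.07 CPM, against 5.40 to 84.9 CPM). Their part in the differences of the pathway genes was not tested.

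PON was lower than VTA in 10 of 16 serotonin and 8 of 13 noradrenaline pathway genes (higher in 0 and 2), where 5.07% of all genes were called lower and 5.09% higher. It was lower than SN in 9 and 5 (higher in 1 and 2), beside 8.06% and 6.3% of all genes. In MO over VTA, 4 serotonin pathway genes were lower and none was higher, beside 0.739% of all genes called lower and 1.96% higher. They were FOXA2 (at least 34-fold higher in VTA), the factor GATA3 (log2FC −2.95), DDC (−2.90) and SLC18A2 (−2.36). Without Rhesus 8 the ratio of means of VTA over MO went from 6.42 to 12.6 for GATA3, from 5.86 to 12 for DDC and from 5.03 to 7.59 for SLC18A2. In the noradrenaline list TFAP2B (2.86) and NPY (1.95) were higher in MO, with DBH, and TH (−4.85), DDC and SLC18A2, which dopamine neurons share, were higher in VTA. In VTA over SN, the serotonin list moved both ways, with 4 genes higher, namely HTR1B (at least 8.03-fold), HTR1A (at least 7.72-fold), SLC17A8 (1.94) and GATA3 (1.17), and 4 lower, namely SLC18A2 (−3.34), DDC (−2.75), LMX1B (−2.72) and GCH1 (−1.44), beside 2.77% of all genes called higher and 2.57% lower. In the noradrenaline list 4 genes were higher, namely CARTPT (6.97), TFAP2B (at least 2.32-fold), GCHFR (2.80) and NPY (2.27), and 5 lower, namely TH (−3.49), SLC18A2, DDC, RET (−1.97) and GCH1. CARTPT was at 249 CPM in the VTA library of Rhesus 4 and at 0.950 to 113 CPM in the other VTA libraries. In MO over SN, 2 serotonin pathway genes were higher, HTR1A (at least 9.79-fold) and HTR1B (at least 4.15-fold), and 6 were lower, SLC18A2 (−5.70), DDC (−5.64), FOXA2 (at least 31.8-fold lower), LMX1B (−2.64), GCH1 (−2.22) and GATA3 (−1.79). The ratio of means of SN over MO went from 3.99 to 10.8 for LMX1B without Rhesus 4, and without Rhesus 8 from 36.9 to 72 for DDC, from 49.7 to 75 for SLC18A2 and from 2.72 to 5.51 for GATA3. Of the noradrenaline list, 4 were higher in MO than in SN, CARTPT (5.25), NPY (4.22), TFAP2B (at least 20.5-fold) and GCHFR (2.00), and 5 lower, TH (−8.34), SLC18A2, DDC, GCH1 and RET (−2.13), beside 4.35% of all genes called higher and 3.31% lower. In MO, CARTPT was at 59.4 CPM in Rhesus 8 and at 0.530 to 23.5 CPM in the other animals. The dopamine neuron genes of these libraries moved with them, as the sum over 7 of these genes was 216 to 1050 CPM in VTA, 197 to 379 CPM in MO, 131 to 198 CPM in PON and 4886 to 9366 CPM in SN, and all 7 were called lower in PON than in VTA and SN. The 7 include TH and SLC18A2, which are also in the pathway lists. Of 6 neuron genes 4 were called higher in PON than in VTA and 4 higher than in SN (10403 to 22449 CPM summed in PON, 5637 to 9902 CPM in VTA and 5686 to 9906 CPM in SN). All 5 oligodendrocyte genes were called higher in VTA than in SN (40277 to 62993 CPM, against 16087 to 32967 CPM), and 3 of 5 higher in MO than in SN. All 5 astrocyte genes were called lower in PON than in SN. The 3 motor neuron genes tested were all called lower in PON than in VTA (summed 0 to 4.07 CPM, against 1.25 to 81.3 CPM). Of these 3, 2 were called higher in VTA than in SN and 2 higher in MO than in SN. Of 4 genes of cortical excitatory neurons tested, 2 were called higher in PON than in VTA and 3 higher in PON than in SN. In MO, 2 of the 4 were called higher than in VTA and 3 higher than in SN. The part of these cell types in the differences of the pathway genes was not tested.

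Against the cortex, summed over its 31 sub-regions within each animal, each of the 4 genes passed the filter in a fit of 16 region groups with 16829 genes. In MO all 4 were called higher, TPH2 by a log2FC of 5.89, SLC6A4 by 6.03, SLC6A2 by 4.32 and DBH by 2.46. Of all genes, 28.3% were called there, 15.8% higher and 12.5% lower. Without Rhesus 8 the values in MO were 4.92 for TPH2 and 5.27 for SLC6A4. In VTA TPH2 (7.17), SLC6A4 (8.77) and SLC6A2 (1.66) were higher and DBH was lower (−1.32), beside 14.8% of all genes called higher and 13.6% lower. Without Rhesus 7 the value of SLC6A2 in VTA was 0.18 (FDR 0.844). Without Rhesus 11 TPH2 in VTA was at 6.38. In PON only DBH was called, at least 3.53-fold lower than in cortex (FDR 3.58e-08, beside 24.9% of all genes called, 13.3% lower). In SN, too, only DBH was called, and it was lower, beside 28% of all genes called, 13.6% lower. Its SN mean of 0.211 CPM lay under the floor of 0.282 CPM, against 1.08 CPM in cortex, so its fitted log2FC of −2.39 is not an exact size.

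The olfactory bulb was above the cortex in SLC6A2 (log2FC 6.33, SE 0.42, FDR 3.41e-25) and SLC6A4 (2.88, SE 0.63, FDR 3.62e-05), beside 22.5% of all genes called, 12.5% higher. TPH2 (FDR 0.340) and DBH (log2FC −0.52, FDR 0.255) were not called. The cerebellum, CBC and CBV summed, was above the cortex in TPH2 (3.29, SE 0.56, FDR 1.67e-07) and SLC6A4 (1.54, FDR 0.0312) and below it in DBH (FDR 2.31e-13) and SLC6A2 (FDR 0.000263), beside 25.7% of all genes called, 10.8% higher and 14.9% lower. In the cerebellum no library of these last 2 genes passed the floor. The call of SLC6A4 was lost without Rhesus 2, 6 or 10 (FDR 0.0733 to 0.143) and without the filter on low counts (log2FC 1.48, FDR 0.0536). These comparisons share the cortex samples.

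Within the cortex the mean of DBH was highest in the frontal and lowest in the occipital lobe. The frontal lobe ranged over the animals from 0.750 over a median of 1.68 to 1.92 CPM (mean 1.52 ± 0.405 CPM, 10 sub-regions, n = 8), and the occipital lobe from 0.0617 over a median of 0.222 to 0.532 CPM (mean 0.264 ± 0.150 CPM, 3 sub-regions). The ranges did not overlap, and in all 8 animals the frontal level was the higher. The temporal lobe (1.31 ± 0.375 CPM), the limbic cortex (1.02 ± 0.323 CPM) and the parietal lobe (0.743 ± 0.257 CPM) lay between. Single sub-regions did not all follow the lobe means, as AASG (0.509 ± 0.203 CPM) and SPrCG (0.530 ± 0.354 CPM) of the frontal lobe lay below AMG&PMG (1.37 ± 0.726 CPM) of the parietal lobe. The one pair of lobes tested was the frontal and the occipital, and the frontal lobe was higher by a log2FC of 2.54 (SE 0.15, FDR 3.51e-16), beside 7.81% of all genes called. TPH2 (0.95, FDR 0.0520) and SLC6A4 (−0.01, FDR 0.973) were not called, and SLC6A2 did not pass the filter and was called higher in the frontal lobe without it (2.45, FDR 6.85e-05). TPH2 was called without Rhesus 4 (1.42, FDR 0.00963) or Rhesus 6 (1.18, FDR 0.0337). Sub-region means of the other 3 genes were at most 0.381 CPM in the 31 cortical sub-regions, which do not include PA (TPH2 0.446 CPM, SLC6A4 0.550 CPM).

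**Figure D5:**
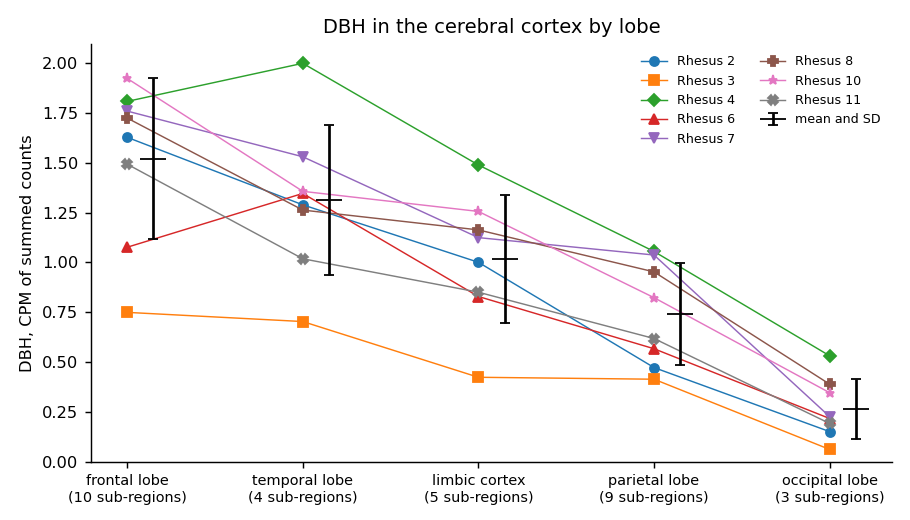
DBH level (CPM) of each animal in the 5 parts of the cortex (thin lines, 1 per animal) with the mean and SD of 8 animals. The frontal lobe lies highest at 1.52 ± 0.405 CPM and the occipital lobe lowest at 0.264 ± 0.150 CPM, with the means of the other 3 parts between them.

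DBH in the cortex was higher in the young animals, although it did not pass the test over all genes. Over all 31 cortical sub-regions the 4 young animals were between 1.21 and 1.44 CPM (mean 1.31 ± 0.0968 CPM) and the 4 mid-aged animals between 0.515 and 1.06 CPM (mean 0.843 ± 0.236 CPM). The groups did not overlap (two-sided exact permutation p = 0.0286, n = 4 in each group, the smallest that this design allows). They were also apart in the frontal, parietal and occipital lobes and the limbic cortex but not in the temporal lobe (exact p = 0.114), and the young mean was higher in 29 of 31 sub-regions, which share the same 8 animals, while all young animals were above all mid-aged ones in 6 of 31. In edgeR with sex as covariate the log2FC of mid-aged over young was −0.64 (SE 0.24, unadjusted p = 0.0289, FDR 0.863), and no gene was called (0%, with 1087 genes at an unadjusted p below 0.05 and 76 called by DESeq2, where DBH had an FDR of 0.320). The ranges of TPH2, SLC6A4 and SLC6A2 in the cortex overlapped between the age groups. None of the 4 genes was called between females and males in the cortex (0.0908% of all genes). This comparison was chosen after the data were seen.

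In MO the females had lower means of all 4 genes than the males, without passing the test. The log2FC of female over male was −2.76 for TPH2, −2.81 for SLC6A4, −2.08 for DBH and −1.75 for SLC6A2, each with an FDR of 0.999 (unadjusted p = 0.0295, 0.0415, 0.0400 and 0.104), and 0.0943% of all genes were called. Both MO libraries that stood apart, those of Rhesus 4 and Rhesus 6, are from females, and their part in the difference was not tested. Without Rhesus 11, DBH was called lower in females (−3.71, FDR 0.0238). In VTA the difference had the other sign (TPH2 2.02, SLC6A4 2.45, FDR 1 for both), with none of the 2 called beside 0.103% of all genes. Without the filter on low counts both were called (FDR 0.000151 for TPH2 and 1.68e-07 for SLC6A4), and the number of genes called overall rose from 15 to 70. The change of the sex difference from MO to VTA did not pass an exact permutation test in any of the 4 genes (p = 0.0857 to 0.171, adjusted p = 0.171). Between mid-aged and young animals none of the genes was called in MO (0.00674% of all genes) or VTA (0.00685%). In PON none passed the filter on low counts.

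Over the 51 sub-region means, the genes most like each of the 4 were named by Pearson's r of log2(CPM + 1) among 13116 genes, as a description in which the points share animals and libraries. For TPH2 they were SLC6A4 (r = 0.853), PRPH, an intermediate filament of brainstem and peripheral neurons (0.749), and ITIH1 (0.715). For SLC6A4 they were PRPH (0.854), TPH2 (0.853) and MARCO (0.835). By Spearman's rho TPH2 and SLC6A4 had 0.329, TPH2 had 0.380 with PRPH and 0.302 with ITIH1, and SLC6A4 had 0.186 with PRPH and 0.456 with MARCO. SLC6A2 was nearest to FOXD3 (0.976), MS4A15 (0.893) and FRMD7 (0.890), which are all highest in OB, with a rho of 0.104, 0.442 and 0.467. DBH was nearest to PIK3C2G (0.767), SDK1 (0.754) and IL1RN (0.746), with a rho of 0.845, 0.840 and 0.745, and its r with SLC6A2 was 0.299, with TPH2 0.135 and with SLC6A4 0.115.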

How the data were processed

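Libraries of low read quality were trimmed with Trim Galore 0.4.4, and reads were mapped to Mmul 8.0.1 with HISAT2 2.0.5 and counted on Ensembl 91 genes with HTSeq 0.6.1 by the authors. The deposited values are raw counts, 1 whole number for each gene and library. The strand option of HTSeq is not given in the sources used here, and the library kit is directional. Assembled transcripts gave the coordinates of FEV only. Symbols came from a reference table, which named 17572 of 30807 genes. The members and gene lists were chosen with earlier results of these data known.

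CPM used TMM-scaled library sizes, and correlations and sign-flip tests log2(CPM + 0.5). Differences were tested in R 4.3.3 with edgeR 4.0.16 (filterByExpr, quasi-likelihood test, Benjamini-Hochberg adjustment over all genes tested). Counts of region groups and lobes were summed within each animal. A gene was called at FDR below 0.05, or below 0.1 for age and sex, with an absolute log2FC above 1. The animal, sampled in each sub-region, was the block between sub-regions (mean r of deviations 0.378 over 48 same-animal pairs and −0.0495 over 336 other pairs of PON, MO, VTA and SN). Age stage and sex were each the covariate of the other. The 8 animals are separate replicates, and 3 counts per library set the floor. Alternatives were DESeq2 1.42.0, its size factors in edgeR, no filter, no block or covariate, all sub-regions in 1 fit, other pseudocounts and each animal left out. Comparisons of the olfactory bulb, cerebellum and lobes, age and sex in VTA and cortex, and relations to list genes were added after the data were seen. Profiles over sub-regions were compared by Pearson's r of mean log2(CPM + 1). Named genes were the members, the genes of the 2 pathway lists with a row and the 3 genes with the most similar profile. Marker genes of cell types and position were named after their values were seen. On simulated data with 200 genes changed 4-fold, 200 were recovered for PON over MO, PON over cortex, frontal over occipital lobe and age in MO. The changed genes were drawn from well-counted genes, with a fixed spread and no difference between animals. The recovery therefore does not tell how well changes are found in genes near the floor or with a wide spread, such as the members. Python 3.11.15, scipy 1.17.1 and matplotlib 3.10.9 were also used. Midbrain and chromatin accessibility samples were not analysed here.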

Additional observations from a re-analysis of the deposited data

Results flagged for a closer look

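In 6 of 39 groups of 8 libraries, 1 animal lay farther from the others than Dixon's 95% critical value allows, where chance gives about 1 in 20 for normally distributed values. The CPM were not log-transformed and some groups hold few counts, so that rate need not hold here. In MO, Rhesus 8 had 45.2 CPM of TPH2, with the next animal at 11.9 CPM, and 49.4 CPM of SLC6A4, with the next at 14.3 CPM. The same animal had 2.75 CPM of SLC6A4 (29 counts) in the entorhinal and perirhinal cortex, with the next at 0.563 CPM. Rhesus 7 had 1.90 CPM of SLC6A2 (20 counts) in VTA, with the next at 0.496 CPM. Rhesus 6 had 0.518 CPM of TPH2 (6 counts) in SN, with the next at 0.220 CPM, and Rhesus 3 had 0.0972 CPM of DBH (1 count) in the cerebellum vermis, where the others were at 0, so that any single count would have set that library apart.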

How the results depend on the processing

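The number of the 4 genes called was equal in 231 of 258 alternative settings, higher in 18 and lower in 9. It fell in PON over VTA from 3 to 2 (DBH) without Rhesus 4, 6, 7 or 11, in VTA over cortex from 4 to 3 (SLC6A2) without Rhesus 7, and in the cerebellum over cortex from 4 to 3 (SLC6A4) without Rhesus 2, 6 or 10 or without the filter on low counts. The rises by over 1.5 times were as follows. Without the filter on low counts it was 2 for MO over VTA (1 with it), 2 for the frontal over the occipital lobe (1) and 2 for female over male in VTA (0). With all 51 sub-regions in 1 fit it was 1 for PON over SN (DBH, 0 otherwise) and 4 for MO over VTA. For SN over cortex it was 2 with no replicate block and 2 with DESeq2 (1 with the block, SLC6A4 being the second), and the pairing by animal changed no other call. With 1 animal left out it was 1 to 2 for the frontal over the occipital lobe and 0 to 1 for female over male in MO.

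Of 798 alternative log2FC values, 742 kept direction and call, 9 lost the call, 10 gained it and 37 changed direction, all of them values that were not called. SLC6A4 in the frontal over the occipital lobe was 0.0081 without the filter and 0.0073 with no replicate block. Mid-aged over young without the sex covariate gave −0.93 for TPH2, −0.63 for SLC6A4, −0.35 for DBH and −0.47 for SLC6A2 in MO, and 0.52 for TPH2 and 0.76 for SLC6A4 in VTA. Leaving out 1 animal at a time gave ranges that crossed 0 for TPH2 in MO over VTA (−1.98 to 0.11) and in SN over cortex (−0.31 to 0.42) and for SLC6A4 in the frontal over the occipital lobe (−0.15 to 0.10). For mid-aged over young they were −0.56 to 1.88 (TPH2), −0.27 to 2.65 (SLC6A4), −1.04 to 0.90 (DBH) and −1.26 to 0.73 (SLC6A2) in MO, −3.58 to 1.09 (TPH2) and −4.14 to 1.09 (SLC6A4) in VTA, and −0.77 to 0.015 (SLC6A4) and −0.021 to 0.52 (SLC6A2) in cortex. For female over male in cortex they were −0.17 to 0.60 (SLC6A4) and −0.0072 to 0.40 (DBH). The cause was not tested.

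Over all genes, the calls of mid-aged over young rose from 1 to 207 in MO and from 1 to 15 in VTA with DESeq2, to 114 and 56 without the filter, and from 0 to 76 in cortex with DESeq2 and 2 without the filter. Female over male went from 14 to 64 and 35 in MO, from 15 to 29 and 70 in VTA and from 18 to 35 in cortex with DESeq2. With 1 animal left out, the calls of mid-aged over young in MO were 0 without Rhesus 2, 7 or 8, 2 without Rhesus 10, 3 without Rhesus 6 and 32 without Rhesus 11, those in VTA 2 without Rhesus 6 or 10 and those in cortex 2 without Rhesus 4, and female over male in MO had 24 without Rhesus 7. The share of these calls that were higher in mid-aged or female animals moved with DESeq2, from 100% to 37.7% (age) and 21.4% to 32.8% (sex) in MO, from 100% to 66.7% and 26.7% to 48.3% in VTA, and from 16.7% to 37.1% (sex) in cortex. The correlations of the 4 genes in MO kept their call in 60 of 60 settings. Of 24 profile correlations under another pseudocount or as Spearman's rho, 13 moved by more than the spread between animals. With a pseudocount of 0.1 the r of SLC6A2 was 0.870 with FOXD3, 0.789 with MS4A15 and 0.756 with FRMD7. Depth limits SLC6A2 in VTA, PON and SN and TPH2, SLC6A4 and DBH in PON and SN. Calls resting on a few counts changed there with the fit, as for DBH in PON over SN and SLC6A2 in VTA over PON and VTA over SN.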

Other observations

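The ratio of SLC6A4 to TPH2 counts, taken where both passed the floor, was 0.538 to 1.74 in the MO of 7 animals (median 1.07) and 2.24 to 6.08 in the VTA of 5 animals (median 2.48), and the ranges did not overlap. In all 5 animals with both values it was higher in VTA, by 1.66 ± 0.79 on the log2 scale (two-sided exact sign-flip p = 0.0625, the smallest that 5 animals can give). The ratio of DBH to SLC6A2 counts in MO was 1.67 to 3.85 in 6 animals (median 2.56).

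TPH1, the tryptophan hydroxylase of pineal gland and gut, was at 10.1 CPM in the MO library of Rhesus 11 and at most 0.945 CPM in the other MO libraries. The 3 pineal list genes with a row include TPH1, so their sum of 11.2 CPM in that library is largely TPH1 itself. In the other MO libraries the sum was at most 1.26 CPM. TPH2 (2.62 CPM) and SLC6A4 (4.54 CPM) of Rhesus 11 lay within the range of the other MO libraries.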
